A study of Mus musculus with 24 samples.

Results

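The Sall genes encode 4 zinc finger transcription factors, and their open chromatin and histone H3K27 acetylation (H3K27ac, a mark of active promoters and enhancers) were followed here in jaw and limb cartilage of the mouse embryo. The members were Sall1, Sall2, Sall3 and Sall4, 4 of 21631 protein-coding genes in the annotation. A peak belonged to the gene whose span held its midpoint, and otherwise to the closest gene, up to 1 Mb away. All embryos were wild-type C57BL/6. ATAC-seq, which cuts accessible DNA with a transposase, was available from 3 libraries of Meckel's cartilage (MC, the rod of cartilage in the lower jaw) at E14.5, 3 libraries of cartilage from the forelimb (FL) at the same age, and from 2 libraries of E12.5 mandibular process. H3K27ac was profiled by CUT&Tag, in which an antibody brings the transposase to the mark, at E14.5 in 3 libraries of MC and 3 of FL. Nothing in the labels tells whether a replicate was 1 animal or a pool, so p-values measure the spread between these libraries, which may be technical. The family was chosen by earlier results of these data, among them the absence of Sall3 from the authors' combined MC list of H3K27ac peaks and its cover in the combined FL list, so those values are a description. Shares and medians of the family beside all genes, those of ATAC included, are likewise a description.

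Sall1 spans chromosome 8, 89027242 to 89044162 (mm10), and Sall2 spans chromosome 14, 52311177 to 52328670. Sall3 spans chromosome 18, 80966989 to 80987021, and Sall4 spans chromosome 2, 168748332 to 168767201. The 4 spans are of like size, 16.9 to 20.0 kb, but the intergenic space that falls to each gene differs. The domain of Sall1, between Cyld and Tox3, measured 756 kb, and that of Sall3, between Atp9b and Galr1, measured 739 kb. The domain of Sall4, between Atp9a and Zfp64, measured 84.9 kb, and that of Sall2, between Mettl3 and Olfr1513, only 28.9 kb. In all 4 cases more of the domain lay above the span, toward higher coordinates, than below it. The assignment is by distance, and a peak far from a span may act on another gene.

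Sall proteins bind DNA through pairs of zinc fingers and recruit the NuRD complex, which removes acetyl groups from histones and represses transcription. SALL1 and SALL4 are known from human syndromes with limb malformations, Townes-Brocks and Duane-radial ray syndrome. Mouse Sall4 acts with the T-box factor Tbx5 in the forelimb bud and is also a factor of pluripotent stem cells. Mouse Sall3 is needed for the palate and cranial nerves. Sall2 is the most divergent of the family.

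Promoter sequences were taken from RefSeq (GRCm38.p6), as windows of 300 bases from 250 bases before to 50 bases after a transcription start. Used here were 5 windows of 2 members, 3 for Sall1 and 2 for Sall2, all on the minus strand. Windows of Sall3 were left out of this step, and the table held none for Sall4. The middle Sall1 window and both Sall2 windows are printed because the open chromatin of these genes fell on them unequally. Capitals mark CpG dinucleotides, and each window is written 5′ to 3′ on the minus strand.
Sall1 middle start, chr8:89043463-89043762: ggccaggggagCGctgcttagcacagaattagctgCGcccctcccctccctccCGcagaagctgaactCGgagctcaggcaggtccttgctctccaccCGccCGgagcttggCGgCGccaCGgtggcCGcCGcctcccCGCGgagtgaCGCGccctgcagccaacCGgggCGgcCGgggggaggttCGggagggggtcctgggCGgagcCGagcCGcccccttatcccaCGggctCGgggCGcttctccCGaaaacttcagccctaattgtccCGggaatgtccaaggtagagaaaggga
Sall2 inner start, chr14:52316274-52316573: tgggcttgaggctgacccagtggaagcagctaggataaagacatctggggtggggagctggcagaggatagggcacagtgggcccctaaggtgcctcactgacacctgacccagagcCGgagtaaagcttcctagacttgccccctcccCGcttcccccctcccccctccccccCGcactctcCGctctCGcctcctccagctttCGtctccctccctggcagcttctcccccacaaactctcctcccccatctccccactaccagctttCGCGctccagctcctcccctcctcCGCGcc
Sall2 outer start, chr14:52328621-52328920: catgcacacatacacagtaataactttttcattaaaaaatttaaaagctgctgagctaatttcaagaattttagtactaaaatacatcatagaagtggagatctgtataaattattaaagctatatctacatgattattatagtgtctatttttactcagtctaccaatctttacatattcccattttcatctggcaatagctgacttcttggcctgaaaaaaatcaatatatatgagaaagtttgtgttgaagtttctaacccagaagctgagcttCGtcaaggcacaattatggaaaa
The Sall1 window holds 27 CpG, more than 84.5% of the 32851 promoter windows in the table, and a GC content of 70%. The inner Sall2 window holds 10 CpG with a GC content of 65%, and the outer Sall2 window holds 1 CpG with a GC content of 30.3%. The median window held 7 CpG. The GC box letters GGGCGG, searched on both strands, occurred 4 times in the printed Sall1 window and in neither Sall2 window, and 35.7% of all windows hold them. The TATA box letters TATAAA occurred once in the outer Sall2 window, against 13.6% of all windows with a match. The AT-rich letters ATATT, like the AT-rich DNA that SALL4 binds, occurred at 2 places in the outer Sall2 window and in neither other printed window, against 25.3% of all windows with a match. These 3 sets of letters do not overlap in their definition, and a match is a description of the sequence.

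The inner Sall2 window was overlapped by an ATAC peak in all 8 libraries. It was covered over its whole length in 7 of them and over 194 bases in E12.5 replicate 1. The outer Sall2 window was met by a peak in 1 library only, FL replicate 3, over 28 bases. The middle Sall1 window was overlapped in all 8 libraries and covered whole in 5. Of the Sall1 windows not printed, the one with its start at 89044162 was overlapped in 3 libraries and the one at 89042862 in 7. In the authors' combined H3K27ac lists the inner Sall2 window was covered whole in both MC and FL. Every Sall1 window, printed or not, was covered whole in MC and not at all in FL.

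The single-library ATAC lists held 43205 to 54192 peaks in MC, 47152 to 70636 in FL and 70042 to 74706 at E12.5. Read depth is unknown from peak lists, so list length stands in its place. E12.5 replicate 1 stood apart: its peaks covered 85.6 Mb against 48.2 Mb in E12.5 replicate 2, and the pair shared a Jaccard index (shared over total covered bases) of 0.198, where pairs of lists without replicate 1 reached 0.317 to 0.470. Single-library differences from E12.5 are therefore also given without that library, here or among the processing alternatives. All 6 cartilage markers, among them Col2a1 and Sox9, had peaks in every ATAC list. Their summed cover, scaled to the same total per list, was 48.6 to 58.1 kb in MC, 32.2 to 44.8 kb in FL and 32.8 to 84.0 kb at E12.5. Col2a1, Acan, Matn1 and Col11a2 averaged higher in MC than in FL, and Sox9 and Col9a1 lower. Markers of other cell types had peaks too, and some of their scaled cover moved with the groups. The 4 neuronal markers summed to 6.99 to 8.64 kb in MC, 9.28 to 11.4 kb in FL and 9.13 to 12.3 kb at E12.5. They did not move together: Stmn2 and Snap25 averaged higher in FL, but Tubb3 and Elavl3 in MC. Tubb3 had 1.71 to 1.96 kb in MC against 0.942 to 1.09 kb in FL. The 4 blood markers summed to 18.6 to 19.7 kb in MC, 21.8 to 29.0 kb in FL and 9.66 to 26.6 kb at E12.5. Among these, Ptprc and Tal1 averaged higher in FL, and Gata1 was listed at 0 in every ATAC list. Spi1 went the other way, with 4.37 to 5.13 kb in MC against 1.28 to 3.01 kb in FL. The 4 epithelial markers summed to 5.62 to 8.11 kb in MC, 5.63 to 7.30 kb in FL and 9.84 to 11.7 kb at E12.5, and both Krt14 and Krt5 were listed at 0 in 2 of 3 MC and 2 of 3 FL libraries. The 4 skeletal muscle markers summed to 2.79 to 7.35 kb in MC, 3.35 to 5.26 kb in FL and 6.56 to 6.76 kb at E12.5. The 4 endothelial markers summed to 25.9 to 28.0 kb in MC, 24.0 to 27.3 kb in FL and 23.2 to 24.6 kb at E12.5. The part of these cells in the Sall values was not tested, and fewer cells with an open site cannot be told apart from a site that is less open in each cell.

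In MC, Sall1 and Sall4 had less ATAC peak cover than in FL, with no overlap between the libraries, but neither difference passed the test across all genes. Sall2 was close in level between the tissues, and Sall3 varied more among MC libraries than between MC and FL. Against E12.5 mandible, MC had less cover at Sall4, Sall1 and, on average, Sall3, and again none passed the test.

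Sall1, the Townes-Brocks gene, had 4.48, 2.25 and 4.02 kb of scaled ATAC cover in MC replicates 1 to 3, against 7.39, 8.81 and 5.00 kb in FL replicates 1 to 3. At E12.5 it had 5.45 and 5.76 kb in replicates 1 and 2. Every MC library lay below every FL and every E12.5 library, and the FL and E12.5 libraries overlapped. The means were 3.58 ± 1.18 kb in MC libraries and 7.07 ± 1.93 kb in FL libraries (SD, n = 3 each). On the scale of log2(scaled kb + 0.5) the difference of MC from FL was -0.90 with a standard error of 0.37 (limma, adjusted p = 0.945 over 16174 genes). The Sall1 peak number was 6, 2 and 6 in MC, against 11, 18 and 5 in FL. Thus FL replicate 3 had fewer Sall1 peaks than 2 of the 3 MC libraries, while covering more bases.

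Sall4, a pluripotency and forelimb factor, had the least cover of the family in every MC and FL library. It had 0.363 and 0.688 kb in MC replicates 1 and 2 and was listed at 0 in MC replicate 3, against 1.25, 1.15 and 0.965 kb in FL replicates 1 to 3. At E12.5 it had 3.29 and 1.90 kb in replicates 1 and 2. The 3 groups did not overlap: all MC libraries lay below all FL libraries, which lay below both E12.5 libraries. The difference of MC from FL was -1.01 with a standard error of 0.40 (limma, adjusted p = 0.945), and FL averaged 1.12 ± 0.144 kb (SD, n = 3). Each MC and FL list held at most 2 Sall4 peaks, and the best of them stood at the top 38.9% of its list by the authors' score. With equal numbers of top peaks per list, MC and FL overlapped at Sall4 and the difference was -0.25 (limma, adjusted p = 1).

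Across all genes, limma called 0% of the 16174 tested in MC against FL (851 at an unadjusted p under 0.05), and 8.98% had every MC library below every FL library. Of the 4 Sall genes, 2 did. The median log2 difference was -0.71 over the Sall genes and 0.03 over all genes tested. Because the family was chosen with earlier results of these data known, this share and median are a description.

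Sall2, the divergent member, had 3.90, 2.55 and 3.04 kb in MC replicates 1 to 3, against 1.92, 2.64 and 2.57 kb in FL replicates 1 to 3. E12.5 replicates 1 and 2 had 2.15 and 3.45 kb, so all 3 groups overlapped. The overlap of MC with FL rests on MC replicate 2. Its peak of 0.885 kb, in a region 10.2 kb above the span, crossed the edge of the Sall2 domain and was not counted. Nor was the E12.5 replicate 2 peak there, while those of MC replicates 1 and 3 and FL replicate 2 were. The MC minus FL difference was 0.34 with a standard error of 0.33 (limma, adjusted p = 1). Sall3, the palate and cranial nerve factor, had 8.19, 1.40 and 2.84 kb in MC libraries, against 5.50, 7.80 and 2.73 kb in FL and 7.17 and 6.72 kb at E12.5. MC replicate 1 alone held 12 Sall3 peaks, where MC replicates 2 and 3 held 2 and 5. The difference of MC from FL was -0.52 with a standard error of 0.57 (limma, adjusted p = 1). It came to -0.01 without MC replicate 2 and to -1.11 without MC replicate 1. It also moved to -0.21 without FL replicate 2, to -0.89 without FL replicate 3, and to -0.25 with equal numbers of peaks per list.

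**Figure D1:**
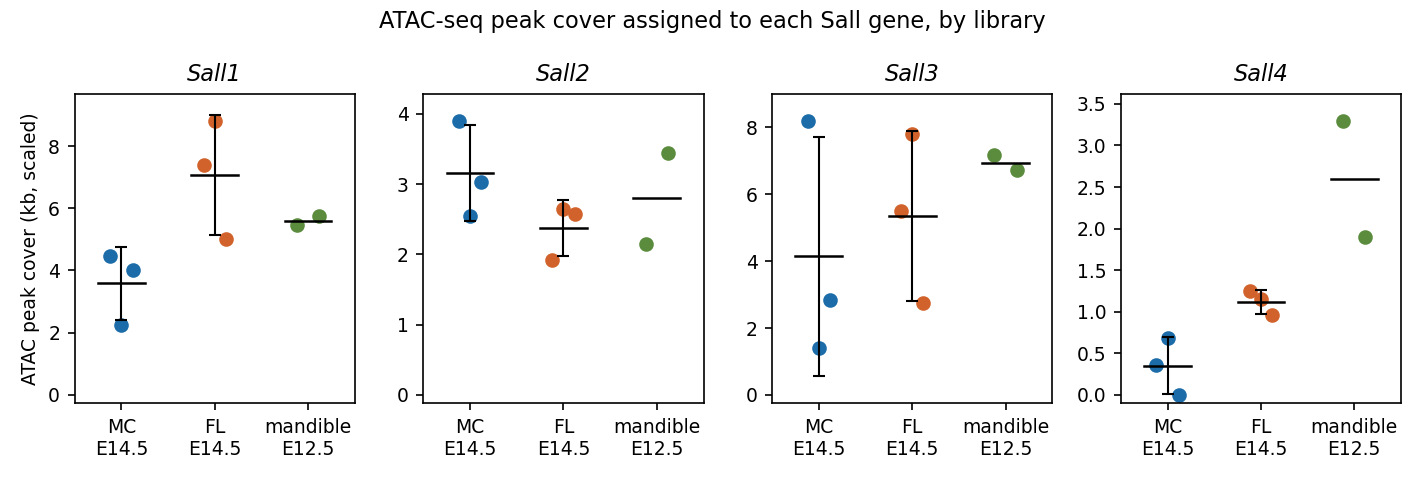
ATAC peak cover assigned to each Sall gene in kb, scaled to the same total per list, for each library (points) of MC and FL at E14.5 and mandible at E12.5. Lines are group means and bars are SD for the groups of 3 libraries. Sall1 and Sall4 have every MC point below every FL point, while Sall2 and Sall3 overlap.

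By mean scaled cover the order was Sall3, Sall1, Sall2 and Sall4 in MC, and Sall1, Sall3, Sall2 and Sall4 in FL. Sall1, Sall2 and Sall3 overlapped in MC, so their order there is within the spread of the libraries, and so did Sall1 and Sall3 in FL. Per 100 kb of domain the order changed. Sall2 had 7.64 to 11.8 kb of peaks per 100 kb in MC, 5.30 to 9.53 kb in FL and 12.53 and 11.3 kb in E12.5 replicates 1 and 2, as listed, where the genome had 1.59 to 3.35 kb per 100 kb over the 8 lists. Sall1 and Sall3 lay below the genome's level in every list, at 0.258 to 1.22 and 0.164 to 1.64 kb per 100 kb. Sall4 lay below it in all MC and FL lists and above it at E12.5, with 6.55 and 2.12 kb per 100 kb in replicates 1 and 2 against 3.35 and 1.88 kb in the genome.

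Sall4 also had the largest difference between MC and E12.5 among the 4 genes, -1.91 with a standard error of 0.44 (limma, adjusted p = 0.712). The median of all genes in this comparison was 0.23 with scaling and -0.14 without it, and the Sall4 difference was -2.29 without scaling. Without E12.5 replicate 1 it was -1.58 (limma, adjusted p = 0.493). Without E12.5 replicate 2 it was -2.25 and passed the threshold (limma, adjusted p = 0.0264), but 3761 of all genes did so there, and the lone E12.5 library is then assumed to vary like the other groups. With equal numbers of peaks per list it was -1.09 (limma, adjusted p = 0.765). Sall1 differed by -0.63 with a standard error of 0.41 (limma, adjusted p = 0.712), and Sall3 by -0.97 with a standard error of 0.63 (limma, adjusted p = 0.712). Without E12.5 replicate 1 these were -0.66 and -0.92, and the Sall1 difference was -0.36 without MC replicate 2. Every MC library lay below both E12.5 libraries at Sall1 and Sall4, not at Sall3, where MC replicate 1 was highest. Without MC replicate 1 the Sall3 difference was -1.56, and without MC replicate 2 it was -0.47. Sall2 differed by 0.16 with scaling and by -0.27 without it (limma, adjusted p = 0.881 and 0.820), against the medians of all genes given above. In this comparison limma called 0% of 16174 genes (915 at an unadjusted p under 0.05), and 3.95% had every MC library below every E12.5 library.

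The comparison of FL with E12.5 mandible uses the same FL and E12.5 libraries as the comparisons above. Sall4 was lower in every FL library than in both E12.5 libraries, by -0.90 with a standard error of 0.44 (limma, adjusted p = 0.416). Without E12.5 replicate 1 the Sall4 difference was -0.57, and with equal numbers of peaks per list the groups overlapped. Sall1 differed by 0.28 with scaling and by -0.19 without it, and Sall3 by -0.45, both with overlap (limma, adjusted p = 0.701 and 0.841 for Sall1, 0.684 for Sall3). Without E12.5 replicate 1 they were 0.24 and -0.41, and the Sall3 difference was -0.08 without FL replicate 3 and -0.76 without FL replicate 2. Sall2 differed by -0.18, and by 0.11 without E12.5 replicate 2. The median of all genes was 0.25 with scaling and -0.10 without it. limma called 0% of 16174 genes here (2002 at an unadjusted p under 0.05), and 9.77% had every FL library below both E12.5 libraries.

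**Figure D2:**
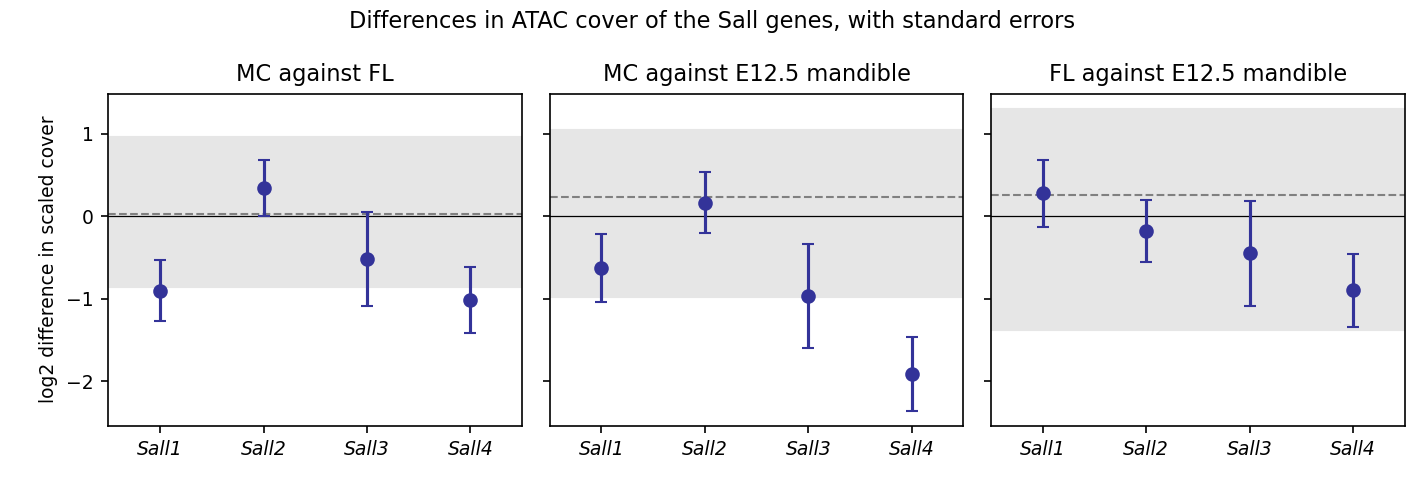
Log2 differences in scaled ATAC cover of the Sall genes (points) with standard errors (bars), for MC against FL, MC against E12.5 mandible and FL against E12.5 mandible. The grey band runs from the 5th to the 95th percentile of all 16174 genes and the dashed line is their median. Against FL, Sall1 and Sall4 in MC lie below the band. Sall4 does so for MC against E12.5 too, and lies inside the band for FL against E12.5.

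The authors' combined ATAC lists, of which there is 1 per tissue and stage and so no replicate, gave the same direction for MC against FL. Sall1 had 2.20 kb in MC, 4.47 kb in FL and 4.41 kb at E12.5, as listed. Sall2 had 3.30, 2.89 and 3.55 kb in the same lists of MC, FL and E12.5. Sall3 had 1 peak of 0.597 kb in MC, 3.16 kb in FL and 8.51 kb at E12.5. Sall4 was listed at 0 in MC, and had 0.612 kb in FL and 1.71 kb at E12.5. The log2 ratios of MC to FL were -0.73 at Sall1, 0.34 at Sall2 and -1.68 at Sall3. At least a log2 of 1 lower in MC were Sall3 and Sall4, 2 of the 4 genes, where 5.88% of 15520 genes were. The Sall3 ratio was 0.13 when the FL list was reduced to its top peaks, as many as in the shorter MC list, which stayed whole. Against E12.5 the same 2 genes were that much lower in MC, where 13.7% of all genes were. None of the 4 was in FL, where 16.4% of all genes were, although the Sall3 ratio of FL to E12.5, -0.70, came to -1.96 with equal numbers of peaks per list and -1.30 without scaling. The median log2 ratios of all genes to E12.5 were 0.40 for MC and 0.38 for FL. Because Sall4 was listed at 0 in MC, its ratio depends on the pseudocount, and with 2 kb in place of 0.5 kb it no longer passed a log2 of 1, at -0.43 against FL and -0.70 against E12.5.

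The peaks of the 8 single-library lists merged into 91 regions in the 4 domains, of 157342 in the genome. Sall3 held 44 of them, Sall1 33, Sall4 9 and Sall2 5. A single list called 58 of the 91, or 63.7%, against 52.1% of all regions. All 8 lists called 2 of the 91, or 2.2%, against 10% of all regions.

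The first of these 2 lies at the upper end of Sall1, chromosome 8, 89040806 to 89044258, and contains the printed Sall1 window. Its cover as listed was 0.784, 1.25 and 0.768 kb in MC replicates 1 to 3, against 2.16, 2.21 and 1.75 kb in FL replicates 1 to 3. E12.5 replicates 1 and 2 had 2.97 and 1.45 kb. Every MC library thus had less cover there than every FL library and both E12.5 libraries. By the authors' score its best peak stood within the top 37.7, 53.4 and 64.8% of the list in MC, against 24.0, 4.65 and 23.0% in FL. The other lies inside Sall2, chromosome 14, 52314148 to 52317139, and contains the inner Sall2 window. Its cover as listed was 1.63, 2.21 and 1.45 kb in MC libraries, against 1.53, 1.86 and 1.45 kb in FL, and 2.79 and 1.87 kb at E12.5. The MC and FL libraries overlapped there. Its best peak stood within the top 10.8 to 22.6% in MC, 9.25 to 22.0% in FL and 6.67 to 6.94% at E12.5, among the higher-ranked peaks of every list.

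In every FL list and no MC list there were 2 regions, both at Sall3, or 2.2% of the 91 against 1.62% of regions in the genome. The first, chromosome 18, 80986599 to 80988507, lies at the upper end of the span. Its cover as listed was 0.620, 1.53 and 0.644 kb in FL replicates 1 to 3, and E12.5 replicate 2 had 0.262 kb. A peak of MC replicate 3 lay just below it, in a separate region from 80985624 to 80986530 that FL replicate 3 also called. The second, chromosome 18, 81050719 to 81052363, lies 64.5 kb above the span, with 0.180, 1.27 and 0.997 kb in FL replicates 1 to 3 and no peak in any MC or E12.5 list. No H3K27ac peak of the combined MC list overlaps it, and one of the combined FL list does. In every MC list and no FL list there was no region among the 91, against 0.367% of all regions. These counts rest on single lists: the FL count was 1 without FL replicate 2, 7 without FL replicate 3 and 1 with equal numbers of peaks per list, and the MC count was 2 without FL replicate 2.

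Between E12.5 mandible and E14.5 MC, 2 regions were called in both E12.5 lists and in no MC list, 2.2% of the 91 against 1.59% of regions in the genome. One is at chromosome 8, 89045807 to 89046784, 2.13 kb above Sall1, with 0.309 kb in FL replicate 2, against 0.978 and 0.389 kb in E12.5 replicates 1 and 2. The other lies 660 kb above Sall3, with 0.433 kb in FL replicate 1, against 0.569 and 0.566 kb in E12.5 replicates 1 and 2. Their count was 15 without E12.5 replicate 1 and 23 without E12.5 replicate 2. Called in every FL list and in neither E12.5 list were 2 regions, the one 64.5 kb above Sall3 and one 128 kb above Sall1, against 2.48% of regions in the genome. The Sall1 region, chromosome 8, 89171348 to 89172119, had 0.234 kb in MC replicate 3, against 0.552, 0.611 and 0.772 kb in FL replicates 1 to 3. Their count was 4 without FL replicate 1, 1 without FL replicate 2 and 9 without FL replicate 3.

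Several regions nearly followed a tissue. At Sall3, 615 kb above the span, 1 region was called in all 3 MC libraries with 0.747, 0.692 and 0.637 kb, in FL replicate 2 alone with 1.03 kb, and in both E12.5 libraries with 1.09 and 1.25 kb. At Sall2, 10.2 kb above the span, 1 region was called in all 3 MC libraries with 0.690, 0.885 and 0.505 kb, in FL replicate 2 alone with 0.533 kb, and in E12.5 replicate 2 with 0.696 kb. It crosses the edge of the Sall2 domain, and the peaks of MC replicate 2 and E12.5 replicate 2 were not counted in the Sall2 cover. At the upper end of Sall4, 1 region was called in MC replicate 2 alone with 0.596 kb, in FL replicates 1 to 3 with 0.999, 0.609 and 0.824 kb, and in both E12.5 libraries with 0.619 and 0.776 kb. These 3 were singled out after their values were seen. Of the 9 Sall4 regions, 7 were called in a single list, and all 7 in an E12.5 list. Among these 7, the region from 168791111 to 168791556 was called in E12.5 replicate 2. The rest were called in E12.5 replicate 1, the library that stood apart. Besides these and the region at the upper end, 1 Sall4 region inside the span was called in MC replicate 1, FL replicate 2 and both E12.5 lists.

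**Figure D3:**
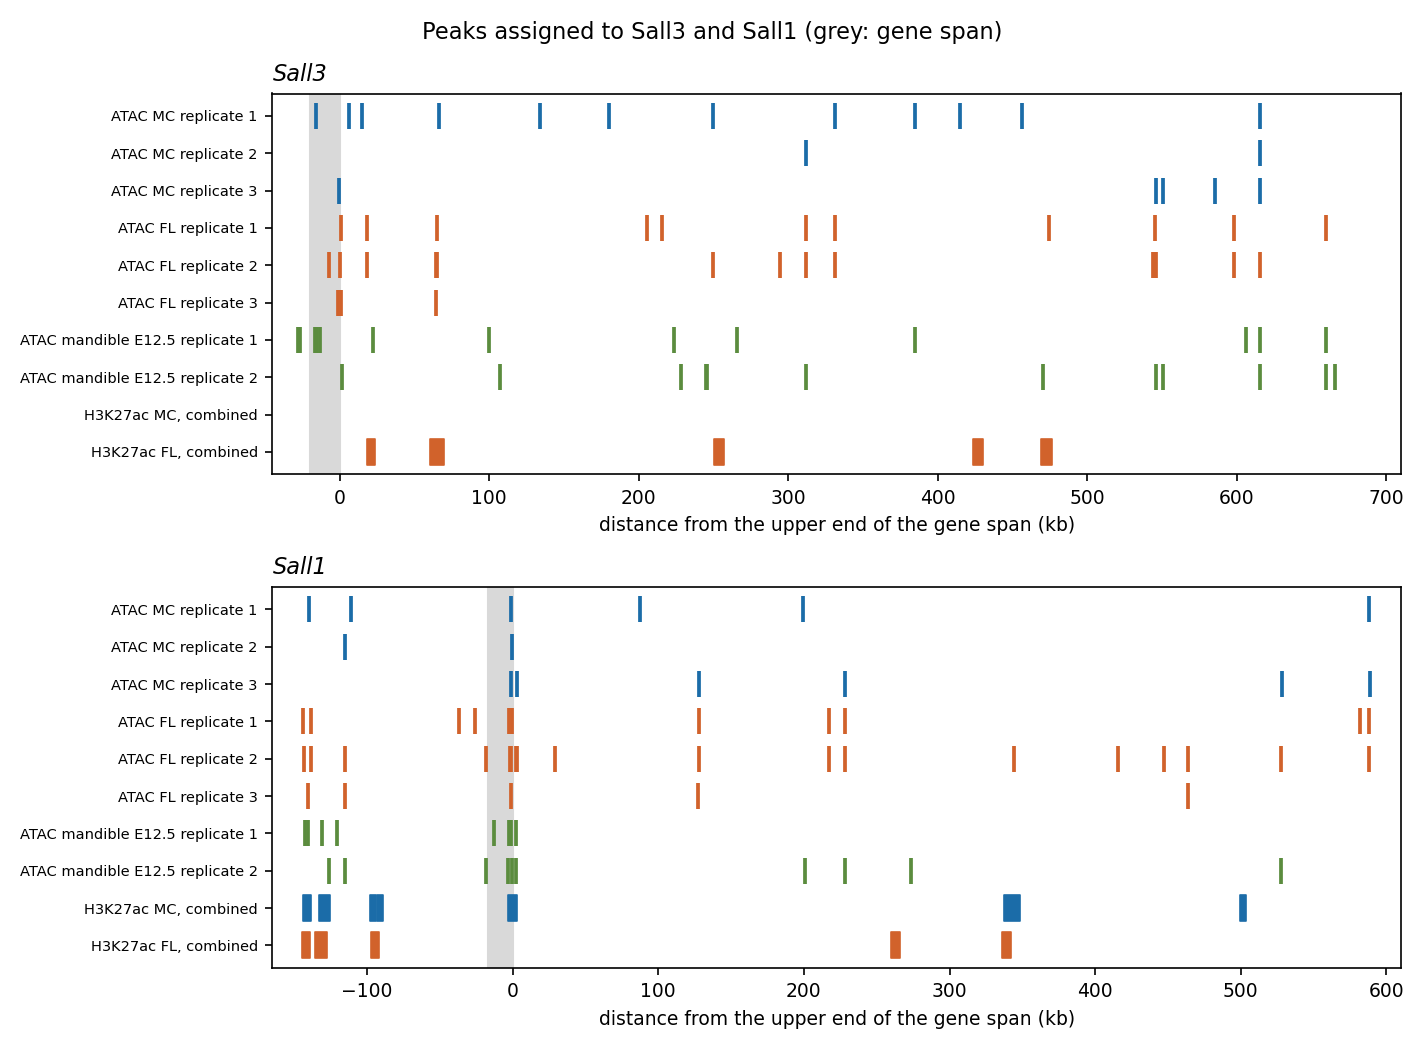
Peaks assigned to Sall3 (top) and Sall1 (bottom) by distance in kb from the upper end of the gene span, for each ATAC list (ticks at peak centres) and the combined H3K27ac lists (boxes to scale). Sall3 has no combined H3K27ac peak in MC and 5 in FL, and the Sall1 gene end has an H3K27ac peak in MC and none in FL.

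In the combined H3K27ac lists the family split. Sall3 was listed at 0 in MC and had 35.3 kb of H3K27ac peaks in FL, Sall4 had 5.70 kb in MC while FL listed it at 0, and Sall1 and Sall2 were marked in both tissues. There is 1 combined list per tissue, so these values have no replicate check.

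At Sall3 the 5 FL peaks lay 21.1, 65.1, 254, 427 and 473 kb above the span, and none lay on the gene. Their total signal, the authors' sum over each peak, was 27346, 46740, 25845, 25828 and 29813 in that order. The lowest total signal in the FL list was 25799, so 2 of the 5 peaks stood at the bottom edge of that list, and the strongest, which overlaps the open region of all FL lists, stood at the top 49.7% of it. The MC list reaches down to a total signal of 16925, below that of all 5 peaks, though the labels do not say that signals of the 2 lists share a scale. At Sall4 the MC peak lay inside the span, chromosome 2, 168753225 to 168758922, with a total signal of 28373, above the lowest value of the FL list. The MC and FL libraries had no ATAC peak in it, and E12.5 replicate 1 had one of 0.686 kb.

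At Sall1 the cover as listed was 43.1 kb over 7 MC peaks and 33.3 kb over 5 FL peaks, a log2 ratio of 0.52 after scaling. Within 100 kb of the gene the log2 ratio was 1.37. Peaks 124 to 78 kb below the span and near 340 kb above it were listed in both tissues. The MC peak at the upper end of the gene, chromosome 8, 89040782 to 89047412, had a total signal of 32900, and no FL peak met it. This is the gene end at which every MC library had less ATAC cover than every FL library. At Sall2 both tissues had 1 peak over the inner start, 4.94 kb long with a total signal of 53098 in MC and 6.44 kb long with a total signal of 53160 in FL. Its log2 ratio was -0.21, and 0.04 when both lists were held to the same lowest total signal.

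Of 14351 genes with H3K27ac cover in the combined lists, 19% had a log2 ratio of at least 1 toward MC and 15.9% toward FL. Sall4 was among the first and Sall3 among the second, so 1 of the 4 genes went each way. Only 16.5% of the 91 Sall regions overlapped a combined H3K27ac peak in MC, and 16.5% in FL, against 55.5 and 55.4% of all ATAC regions. No Sall3 region overlapped one in MC and 6 of 44 did in FL, while 12 of 33 Sall1 regions did in MC and 7 in FL.

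**Figure D4:**
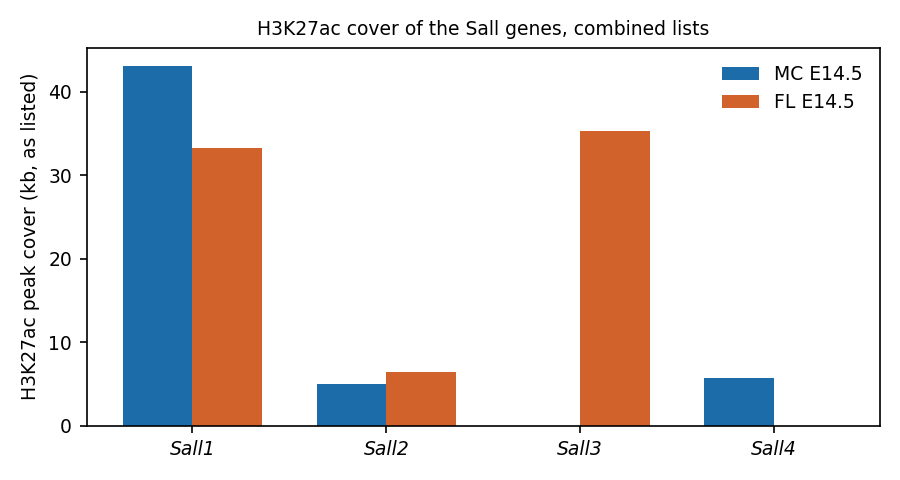
H3K27ac peak cover of each Sall gene in kb, as listed in the authors' combined list of MC (left bars) and of FL (right bars), with 1 list per tissue and so no error bars. Sall3 is at 0 in MC and 35.3 kb in FL, and Sall4 is at 5.70 kb in MC and 0 in FL.

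The single-library H3K27ac lists did not show this split. Sall3 had 19.2, 16.9 and 19.4 kb of scaled cover in MC replicates 1 to 3, against 11.7, 15.3 and 16.4 kb in FL replicates 1 to 3. Every MC library was above every FL library, opposite to the combined lists, with a log2 difference of 0.36 and a standard error of 0.34 (limma, adjusted p = 0.861 over 8645 genes). Among all genes 6.34% had every MC library above every FL library, and limma called 0% (571 at an unadjusted p under 0.05). Sall1 had 17.1, 20.4 and 17.1 kb in MC libraries, against 15.8, 19.9 and 13.6 kb in FL, a difference of 0.15 with overlap (limma, adjusted p = 0.941). Sall4 was listed at 0 in MC replicate 1 and had 1.62 and 1.25 kb in MC replicates 2 and 3, against 2.57, 1.01 and 0.820 kb in FL. Its difference was -0.57 with overlap (limma, adjusted p = 0.874), and 0.07 without MC replicate 1. Sall2 fell under the minimum mean of 1 kb and was not tested: it had 0.719 kb in MC replicate 1 alone, against 0.560 and 0.391 kb in FL replicates 2 and 3.

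These single-library peaks were mostly not the peaks of the combined lists. In the Sall domains 1 of 47, 1 of 51 and 0 of 56 peaks of MC replicates 1 to 3 lay in the combined MC list. In FL the numbers were 2 of 44, 2 of 54 and 1 of 44. Genome-wide, 10.3 to 12.6% of the single-library peaks lay in the combined list of their tissue. The combined lists themselves covered 16.0 kb (MC) and 17.8 kb (FL) per 100 kb of the genome, a larger share. The single-library lists therefore cannot serve as a replicate check of the combined lists, at Sall3 or elsewhere. The cover of Sall1 and Sall3 per 100 kb of domain in these lists, 1.60 to 2.80 kb, was near the genome's 1.94 to 2.11 kb. The labels do not say how the combined lists were made from the libraries.

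**Figure D5:**
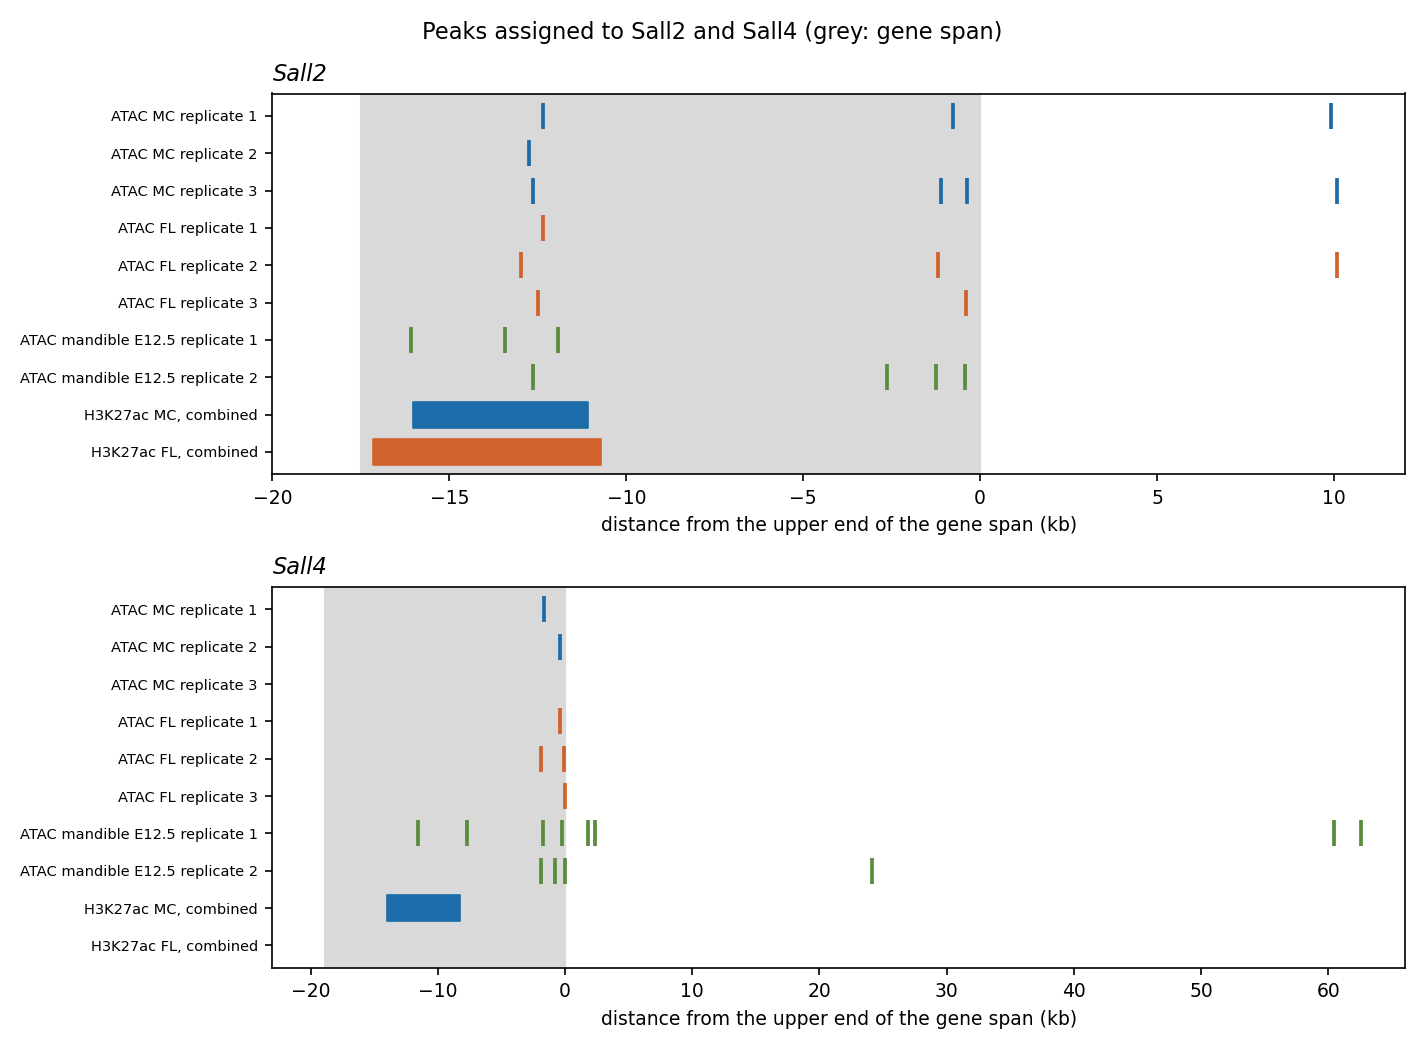
Peaks assigned to Sall2 (top) and Sall4 (bottom) by distance in kb from the upper end of the gene span, for each ATAC list (ticks at peak centres) and the combined H3K27ac lists (boxes to scale). The inner Sall2 region is open in all 8 lists and has H3K27ac in both tissues. Sall4 has most of its ATAC peaks at E12.5, with 8 in replicate 1, the library that stood apart, and 4 in replicate 2.

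All 13 genes for subunits of NuRD, through which Sall proteins act, passed the filter on low ATAC cover, and in MC against FL 8 differences were positive and 5 negative, with a median of 0.16 against 0.03 over all genes. limma called none of them. Higher in every MC library than in every FL library were 4 of the 13, where 9.18% of all genes were, and none was lower in that way. The subunits of smallest p were Rbbp4, a histone chaperone, and Mta3, a scaffold subunit. Rbbp4 was listed at 0 in all 3 MC libraries and in FL replicate 2, and had 1.66 and 1.44 kb in FL replicates 1 and 3 (limma, adjusted p = 0.979). Mta3 had 6.30, 4.49 and 4.63 kb in MC libraries, against 2.96, 3.45 and 3.46 kb in FL, with no overlap and a log2 difference of 0.56 (limma, adjusted p = 1). Against E12.5, the medians of the 13 were 0.02 for MC and -0.11 for FL, where all genes had 0.23 and 0.25, and limma again called none. These list medians without E12.5 replicate 1 were 0.12 and -0.06, where all genes had 0.01 and -0.02. Hdac2, a histone deacetylase, was higher in every E14.5 library than in both E12.5 libraries, by 0.93 for MC and 1.05 for FL (limma, adjusted p = 0.712 and 0.405). The Hdac2 differences without E12.5 replicate 1 were 0.13 and 0.25, and E12.5 replicates 1 and 2 had 0.762 and 3.34 kb. Rbbp4 differed by -1.11 for MC with overlap (limma, adjusted p = 0.712), and by -2.22 without E12.5 replicate 1, the groups then not overlapping (limma, adjusted p = 0.547). Mbd3, a methyl-CpG-binding domain protein, was lower without overlap in FL than at E12.5 by -0.93 (limma, adjusted p = 0.403), and by -0.36 without E12.5 replicate 1. In the combined H3K27ac lists 3 of 11 measured subunits were at least a log2 of 1 higher in MC and none lower, where 19% and 15.9% of all genes were. Hdac1, a deacetylase, had 28.5 kb in the MC list and 6.83 kb in the FL list, a log2 ratio of 2.14.

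Of 11 limb genes that act with or beside Sall genes, 5 differences were positive and 6 negative in MC against FL, with a median of -0.10. limma called none, and 4 were lower in every MC library than in every FL library, where 8.98% of all genes were, and none higher. Tbx5, the partner of Sall4 in the forelimb, had 3.17, 2.25 and 1.46 kb in MC libraries, against 6.16, 7.95 and 7.67 kb in FL. The groups did not overlap, and the log2 difference was -1.51 with a standard error of 0.53 (limma, adjusted p = 0.945). At E12.5 Tbx5 had 10.4 kb in replicate 1 and 1.94 kb in replicate 2, and MC differed from E12.5 by -0.93 with overlap (limma, adjusted p = 0.712). The sign turned without E12.5 replicate 1, to 0.15. Fgf8, a ligand of the limb ridge and jaw epithelium, had 3.28, 1.84 and 2.77 kb in MC libraries, against 2.70 and 0.549 kb in FL replicates 2 and 3 and a listing at 0 in FL replicate 1. Its difference was 1.37 with overlap (limma, adjusted p = 0.947), and for FL against E12.5 it was -1.68 with overlap (limma, adjusted p = 0.399). Shh, the hedgehog ligand, was lower in MC than at E12.5 by -1.14 (limma, adjusted p = 0.712), and Hand2, which acts upstream of Shh in the limb, was higher in FL than at E12.5 by 1.33 (limma, adjusted p = 0.412), both with overlap. Without E12.5 replicate 1 these differences were -1.23 for Fgf8, -0.83 for Shh and 0.08 for Hand2, whose E12.5 replicates 1 and 2 had 2.47 and 16.2 kb.

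In the combined H3K27ac lists Tbx5 was listed at 0 in MC, as Sall3 was, and had 99.9 kb in FL. Fgf10, the limb mesenchyme ligand, had 3.75 kb in MC while FL listed it at 0. Shh had 4.04 kb in the MC list and 20.4 kb in the FL list, a log2 ratio of -2.05. Of 10 limb genes measured there, 3 were at least a log2 of 1 higher in MC and 2 lower, where 19% and 15.9% of all genes were. In the single-library H3K27ac lists, 3 NuRD subunits and 9 limb genes passed the filter and limma called none. Those of smallest p were Mbd2 at 0.71 and Rbbp7 at 0.12 among the subunits, and Zbtb16 at -0.91 and Hand2 at 0.40 among the limb genes (limma, adjusted p of 0.784 to 0.982 over the 4).

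Among the 16174 genes, some with a pattern most like each member over the 8 ATAC libraries were Cbln1 and Tmem268 for Sall1, with Pearson r of 0.953 and 0.896. For Sall2 Cyp4f16 had an r of 0.957, and for Sall3 Spock1 and Zfp536 both had an r of 0.962. For Sall4 they were Lbx1 and Pou6f1, with r of 0.943 and 0.934. Between members, r was 0.76 for Sall1 and Sall3, 0.42 for Sall1 and Sall4, 0.42 for Sall3 and Sall4, and 0.17 for Sall2 and Sall3. It was -0.23 for Sall1 and Sall2 and -0.46 for Sall2 and Sall4. These values describe 8 libraries that each share their list length and quality across genes, and so carry no test.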

How the data were processed

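Peak lists were the starting point. The submitters' processing notes name the build mm10 and the tools Trim Galore, Bowtie2, SAMtools, Genrich (an ATAC-seq peak caller) and SEACR (a CUT&Tag peak caller); versions and settings are not given in the sources used here. Hi-C and 4C samples were not analysed here. Titles and protocols of the E12.5 libraries name mandible and ATAC-seq while their descriptions name another stage and assay, and titles and protocols were followed.

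The deposited ATAC lists give a peak score and a −log10 p for each peak. The deposited H3K27ac lists give a total signal and a highest signal for each peak. Both were used to rank peaks within a list or to compare lowest values, and no counts of reads were used, so intervals on depth cannot be given. The authors gave 1 list per library and 1 combined list per tissue and stage.

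Kb of peaks per gene were summed, brought to 1 common total per list, and fitted as log2(kb + 0.5) with limma 3.58.1 in R 4.3.3, all 8 ATAC lists in 1 fit with 5 residual degrees of freedom and the 6 H3K27ac lists in another, two-sided, with Benjamini-Hochberg adjustment and a threshold of 0.05. The lowest mean cover tested was 0.3 kb for ATAC and 1 kb for H3K27ac. An exact permutation test of 3 against 3 cannot go below 0.1 and was not used. Combined lists have no test. Regions are peaks merged over the 8 lists, called where a peak overlaps by 1 bp. The peak sums were made in Python 3.11.15 (pandas 2.3.3, numpy 2.4.6).

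The members, gene lists and tests were chosen with earlier results of these data known. The genes named are the 4 members, 2 of most like pattern for each (1 of these is not reported here), in each of 2 gene lists those past the threshold or else the 2 of smallest p, and in the combined H3K27ac lists those with a log2 ratio of at least 2. The labels do not say whether same-numbered replicates share more than a number. Alternatives changed the pseudocount, filter, scaling, peak number, assignment, replicates and block.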

Additional observations from a re-analysis of the deposited data

How the results depend on the processing

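Read depth is unknown from peak lists, which limits what the absence of a peak can show. The cause of the changes below was not tested. The counts of genes that limma called, 0 in each comparison, were 20 for MC against FL, 11 for MC against E12.5 and 6 for FL against E12.5 with a pseudocount of 0.1 kb, and 8 for MC against FL with the 2 compared groups alone. They were 0 in every comparison with the replicate block, and 0 to 3761 and 0 to 6163 for MC and FL against E12.5 when 1 library was left out, the higher counts without E12.5 replicate 2. Same-numbered MC and FL ATAC libraries correlated by 0.044 to 0.051 after removing group means, and differently numbered ones by -0.047 to -0.0033. Values this small cannot tell whether the numbers pair the samples.

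Of 303 single-gene values under an alternative, 275 kept their direction and call, 14 changed sign, 13 combined-list values moved by over 1.5 times and 1 passed the threshold (Sall4, MC against E12.5, without E12.5 replicate 2). The 275 are not a measure of stable size. A limma value counted as kept whatever its size, and no Sall gene was called in the main fits, so keeping the call says little. A combined-list value counted as kept when it moved by less than 1.5 times. Sign changes for MC against E12.5 were at Sall2, with -0.27 unscaled, -0.0033 by number of peaks and -0.12 to 0.45 without 1 E12.5 library. For FL against E12.5 they were at Sall1, with -0.19 unscaled and -0.016 with equal numbers of peaks, at Sall2, with -0.47 to 0.11 without 1 E12.5 library, and at Sall3, with 0.62 in domains up to 100 kb. In single-library H3K27ac, Sall1 was -0.24 in domains up to 100 kb and Sall4 -0.97 to 0.074 without 1 library. In the combined lists H3K27ac of Sall2 was 0.045 with 1 lowest total signal (an alternative chosen after seeing the data), and ATAC was 0.13 at Sall3 with equal numbers of peaks (MC against FL), -0.092 unscaled at Sall2 (MC against E12.5), and -0.046 at Sall1 within 100 kb and -0.26 at Sall2 unscaled (FL against E12.5).

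Genes at a log2 ratio of 1 or more in size numbered 3200 for combined H3K27ac with each covered base assigned on its own, and 362, 1418 and 2248 for combined ATAC of MC against FL, MC against E12.5 and FL against E12.5 with a pseudocount of 2 kb. With equal numbers of peaks the Sall regions numbered 42, with 1 in every FL and no MC list, 0 in every E12.5 and no MC list, and 1 each in every FL and no E12.5 list and the reverse. Leaving out 1 list gave 0 to 2 regions in every MC and no FL list, 1 to 7 in every FL and no MC list, 0 to 1 in every MC and no E12.5 list, 2 to 23 in the reverse, 1 to 9 in every FL and no E12.5 list and 0 to 22 in the reverse.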
